A study of Mus musculus with 8 samples.

Results

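Expression of 10 genes of sphingolipid and ceramide synthesis was followed in the liver of *Agpat3* wild-type (WT) and knockout (KO) mice. They are *Sptlc1*, *Sptlc2*, *Kdsr*, *Cers2*, *Cers4*, *Cers5*, *Cers6*, *Degs1*, *Sgms1* and *Smpd3*. Each array probe was matched to a gene symbol by its transcript. The genes were chosen for the steps they encode, with earlier results of these data known. They are 10 of 22911 named genes on the array, with 14 of its 56605 probes. The 8 livers came from male C57BL/6 mice, 10 weeks of age, of which 4 were *Agpat3* WT and 4 *Agpat3* KO, with no treatment named in the labels. The KO is described in the study as a global one, so the deletion was not confined to hepatocytes. *Agpat3* encodes an acyltransferase that places docosahexaenoic acid (DHA) into a common precursor of phospholipids, and the study asked how hepatic gene expression responds when DHA-containing phospholipids are low.

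Ceramide is the core of complex sphingolipids. It is made at the endoplasmic reticulum from serine and palmitoyl-CoA by a condensation, a reduction, an N-acylation and a desaturation, and is then given a head group in the Golgi, chiefly phosphocholine taken from phosphatidylcholine, which yields sphingomyelin. Sphingomyelinases return sphingomyelin to ceramide. In liver, sphingolipids are membrane components and are exported in lipoproteins, and hepatic ceramide has been widely studied in relation to steatosis and insulin resistance.

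Each liver was hybridized to 1 one-color Agilent array, and every value below is a log2 signal with the 75th percentile of its array set to 0, so that a difference of 1 is a 2-fold change. A gene counted as called at more than 1.5-fold with an adjusted p under 0.2 (limma, Benjamini-Hochberg over 29069 tested probes), after the thresholds of the study, whose legend does not say if its p was adjusted. Where several probes matched a gene, the brightest one stood for it. *Agpat3* itself fell by 6.12 on the log2 scale in KO (adjusted p = 4.46e-07), and its other probe fell by 5.69. Hepatocyte markers were bright on all arrays, and none of 6 was called, while none of 4 adipocyte markers was bright enough to be tested. Of 5 pancreas acinar markers, 2 were tested and 0 called. They were *Cela1* (-0.54, adjusted p = 0.292, groups not overlapping) and *Ctrb1* (-0.15, adjusted p = 0.656). All arrays lay on 1 slide, with WT filling row 1 and KO row 2, and these 2 differences cannot be told apart. Each of the 4 columns, which follow the replicate numbers, held 1 WT and 1 KO array. Nothing in the labels gives litters, and bulk liver RNA cannot separate fewer cells of a type from less RNA per cell.

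None of the 9 genes that could be tested was called in KO liver, against a background of 1.76% of 14067 tested genes. *Cers6* was too dim to be tested. *Cers2*, at 1.14-fold, was the one gene with an unadjusted p under 0.05 (background 14.0%) and the one whose WT and KO values did not overlap (background 9.72%). For 8 of the 9 genes, the 95% interval of the change lay inside 1.5-fold in both directions (background 76.2%). The exception was *Smpd3*, whose estimate was the largest, at 2.20-fold, with an interval from 0.979-fold to 4.94-fold. The median change over the 9 genes was 0.02 on the log2 scale, next to -0.03 over all tested genes, and the median size of the change was 0.04, next to 0.11. These medians describe the genes, and no test was made of the group.

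**Figure D1:**
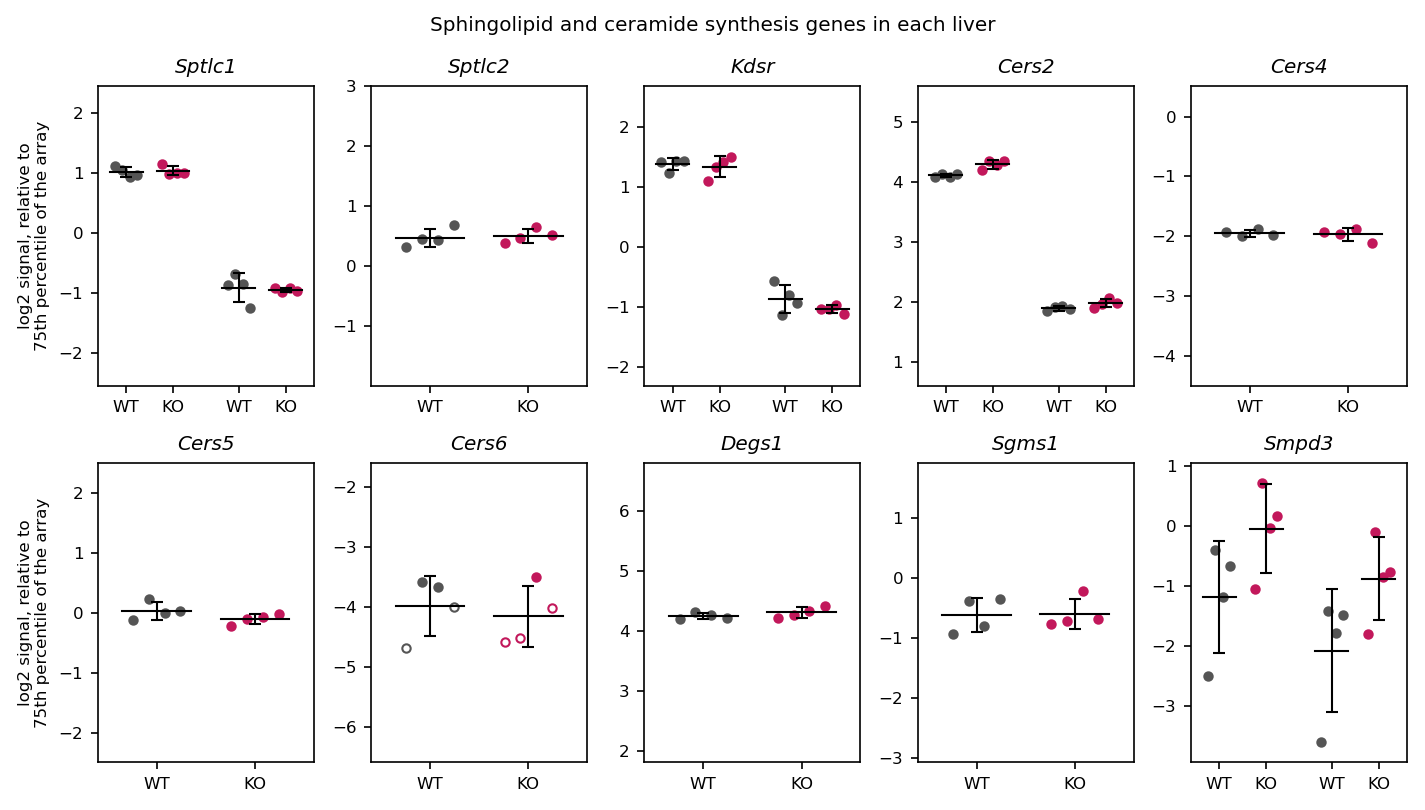
Log2 signal of each probe, with the 75th percentile of its array at 0 (vertical axis), in the 4 WT (grey) and 4 KO (magenta) livers, with the mean and SD in black. Every panel spans the same number of log2 units, open points were not well above background, and where a gene had 2 probes the brighter is on the left. WT and KO points lie at the same height for most genes, *Cers2* is separated by a small step, and *Smpd3* scatters most.

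Synthesis begins with serine palmitoyltransferase, whose core is the pair of subunits *Sptlc1* and *Sptlc2*. *Sptlc1* read 1.13, 1.05, 0.94 and 0.98 in the WT livers and 1.15, 0.99, 1.00 and 1.01 in the KO livers. *Sptlc2*, which carries the catalytic lysine, read 0.33, 0.46, 0.43 and 0.69 in WT and 0.38, 0.47, 0.66 and 0.52 in KO. The groups overlapped for both subunits. The change was 0.02 (standard error 0.07, 95% interval -0.15 to 0.18, adjusted p = 0.947 from limma) for *Sptlc1* and 0.03 (standard error 0.10, 95% interval -0.19 to 0.26, adjusted p = 0.918) for *Sptlc2*. The dimmer probe of *Sptlc1* gave -0.04 (adjusted p = 0.916), the opposite sign at a size below its error.

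*Kdsr* encodes the reductase that turns the condensation product into dihydrosphingosine. Its values were 1.42, 1.23, 1.43 and 1.43 in WT and 1.096, 1.33, 1.41 and 1.499 in KO. Both the lowest and the highest of the 8 values were KO livers, and the change was -0.04 (standard error 0.10, 95% interval -0.27 to 0.19, adjusted p = 0.899). Its dimmer probe gave -0.17 (adjusted p = 0.578).

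Ceramide synthases attach the fatty acid, and each prefers acyl-CoAs of certain lengths. *Cers2*, the main hepatic form, uses very long chains. Its brighter probe read 4.09, 4.13, 4.09 and 4.14 in WT and 4.20, 4.36, 4.29 and 4.35 in KO. Every KO value lay above every WT value, with means of 4.30 ± 0.07 and 4.11 ± 0.03 (SD, n = 4 each). The WT spread was narrow, smaller than that of all but 1.24% of tested probes. The change was 0.18 (standard error 0.06, 95% interval 0.04 to 0.33), or 1.14-fold with an interval of 1.03-fold to 1.26-fold. The exact two-sided permutation test gave p = 0.0286, the smallest possible with 4 against 4 mice, and the adjusted p was 0.271, so the difference did not pass after adjustment. The second probe read 1.85, 1.93, 1.95 and 1.88 in WT and 1.91, 1.98, 2.07 and 1.99 in KO, and here the groups overlapped. Its change was 0.08 (95% interval -0.06 to 0.23, adjusted p = 0.638). At the brighter probe KO was above WT in all 4 columns of the slide, by 0.11 to 0.23, which non-overlapping groups make certain. The second probe also had KO above WT in all 4 columns. With the column as a block in limma, the adjusted p was 0.277 at the brighter probe and 0.572 at the second.

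A window at 1 of the 2 annotated starts of *Cers2* is shown, from 250 bases before to 50 after the start (RefSeq, GRCm38.p6, chr3:95314940-95315239, plus strand, 5′ to 3′). *Cers2* was picked because its values were separated at the brighter probe. That 1 of 9 tested genes was separated is near the background share of 9.72%, and its second probe overlapped. The window is therefore shown as a description only. Capitals mark matches to a CCAAT box, an E-box and 2 GC boxes, in that order.

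*Cers2*: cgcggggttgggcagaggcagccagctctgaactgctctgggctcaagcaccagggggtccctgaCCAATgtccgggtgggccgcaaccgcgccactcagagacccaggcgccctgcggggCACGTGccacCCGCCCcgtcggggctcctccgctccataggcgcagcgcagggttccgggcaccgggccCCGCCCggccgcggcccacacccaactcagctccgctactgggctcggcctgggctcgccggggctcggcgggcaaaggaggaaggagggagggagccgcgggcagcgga

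The window was 75% G and C, next to a median of 52.7% over all windows. Letters were searched on both strands in 32851 promoter windows of the same length, of which 37.4% held CCAAT, 35.7% held GGGCGG and 7.15% held CACGTG, the E-box that SREBP1 can bind besides its sterol element. The sterol element was searched as TCACNCCAC, which 1.24% of windows held. None of the 13 windows of 9 of the genes held it, while CACGTG was in 3, of *Cers2*, *Degs1* and *Cers6*, GGGCGG in 8 and CCAAT in 5. The other *Cers2* window held none of these motifs, *Smpd3* had no window in the table, and a match of letters is a description, not a binding site.

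*Cers4*, which favors long chains, read -1.93, -2.00, -1.88 and -1.98 in WT and -1.92, -1.95, -1.87 and -2.11 in KO. The groups overlapped almost fully, with a change of -0.02 (standard error 0.07, 95% interval -0.19 to 0.15, adjusted p = 0.945). *Cers5* and *Cers6* both use palmitoyl-CoA. *Cers5* read -0.12, 0.24, 0.00 and 0.03 in WT and -0.22, -0.09, -0.07 and -0.02 in KO. The KO array was the lower one in all 4 columns, but the groups overlapped, and the change of -0.14 (standard error 0.09, 95% interval -0.35 to 0.07, adjusted p = 0.575) did not pass. *Cers6* was well above background on 2 WT arrays and 1 KO array, so no fold change is given. It read -4.68, -3.59, -3.67 and -4.01 in WT and -4.58, -4.53, -3.51 and -4.02 in KO, with much the same range in both genotypes.

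*Degs1* introduces the double bond that turns dihydroceramide into ceramide. It read 4.20, 4.31, 4.27 and 4.21 in WT and 4.22, 4.26, 4.34 and 4.43 in KO. The highest values were KO livers, but the groups overlapped, and the change was 0.06 (standard error 0.07, 95% interval -0.10 to 0.23, adjusted p = 0.751). *Sgms1*, the Golgi sphingomyelin synthase, read -0.94, -0.39, -0.80 and -0.36 in WT and -0.77, -0.72, -0.22 and -0.70 in KO. Its livers spread more within each genotype than those of the tested genes above did at their brightest probe, and the change was 0.02 (standard error 0.17, 95% interval -0.37 to 0.42, adjusted p = 0.973).

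**Figure D2:**
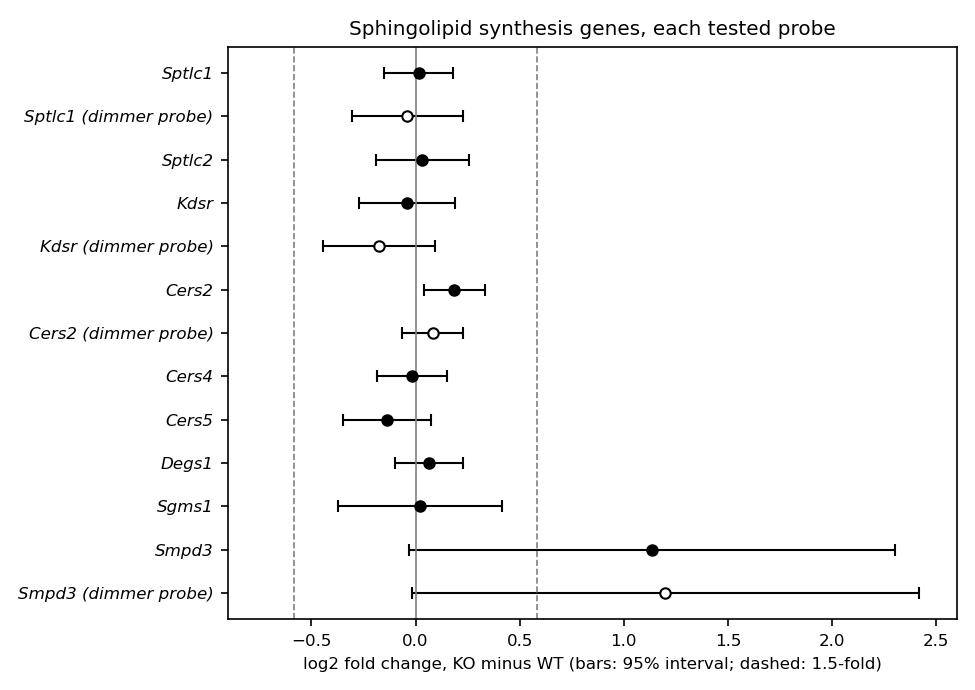
Log2 fold change of each tested probe, KO minus WT (horizontal axis), with its 95% interval from limma. Filled points are the brightest probe of a gene, open points a second probe, and dashed lines mark 1.5-fold. All intervals but those of *Smpd3* lie between the dashed lines, and that of the brighter *Cers2* probe, 0.04 to 0.33, leaves out 0.

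*Smpd3* encodes a neutral sphingomyelinase, which works in the reverse direction and releases ceramide from sphingomyelin. Its brighter probe read -2.49, -0.40, -1.18 and -0.66 in WT and -1.05, 0.73, -0.02 and 0.18 in KO. The dimmer probe read -3.60, -1.42, -1.79 and -1.49 in WT and -1.79, -0.10, -0.85 and -0.77 in KO. Replicate 1 was the lowest liver of its genotype and replicate 2 the highest, in WT and KO and at both probes, and the genotypes overlapped. The means at the brighter probe were -1.18 ± 0.93 in WT and -0.04 ± 0.74 in KO (SD, n = 4 each). These SDs were larger than those of 99.4% of tested probes in WT and 98.2% in KO. The change was 1.14 (standard error 0.51, 95% interval -0.03 to 2.30, adjusted p = 0.389) at the brighter probe and 1.20 (standard error 0.53, adjusted p = 0.383) at the dimmer one. The exact two-sided permutation test gave p = 0.114 for each probe, so the difference was not separated from the spread between mice. Without WT replicate 1, the lowest liver, the change was 0.70 (adjusted p = 0.530).

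Within the 4 columns of the slide, *Smpd3* in KO was above WT by 1.44, 1.12, 1.15 and 0.83 at the brighter probe. At the dimmer probe the differences were 1.81, 1.32, 0.94 and 0.72, again all positive. With the column as a block, the change of 1.14 had a standard error of 0.11, a 95% interval of 0.86 to 1.42 and an adjusted p of 0.0528, and *Smpd3* passed both thresholds. The dimmer probe had an adjusted p of 0.111 in that fit. Without the block, *Smpd3* passed only if the p threshold of 0.2 was read as unadjusted, so its call depends on the comparison within columns and on the adjustment. The labels give no reason to pair these mice, and what the arrays of a column share was not tested. The summed level of 5 Kupffer cell markers was lowest in replicate 1 of both genotypes, where *Smpd3* was lowest, at 58.4 in WT and 48 in KO (units of the 75th percentile), within ranges of 58.4 to 104 in WT and 48 to 80.2 in KO. In replicate 2, where *Smpd3* was highest, the sum was 73.5 in WT and 76.6 in KO and not the highest of either genotype. KO replicate 1 was also the lowest KO liver for the endothelial and stellate sums, whereas WT replicate 1 was not the lowest of WT in either. The sum of 3 tested cholangiocyte markers was lowest of WT in replicate 1 (5.43) but highest of KO in replicate 1 (7.99). The Kupffer sum was carried mostly by *Cd5l* and *Clec4f*, with mean log2 signals of 5.35 and 4.42 in WT. Only *Marco*, a scavenger receptor of macrophages, was called among the Kupffer cell markers (-1.22, adjusted p = 0.0983). The changes of *Clec4f* (-0.09), *Cd5l* (-0.07), *Adgre1* (-0.17) and *Vsig4* (0.04) were small, and the median over the list was -0.09. Sums of 5 stellate markers (85.5 to 109 in WT, 83.5 to 91 in KO) and 5 endothelial markers (73.8 to 76 in WT, 66 to 79.3 in KO) overlapped between genotypes. The endothelial sum was carried mostly by *Clec4g* and *Stab2*. Of the 5 endothelial markers, 3 changed upward and 2 downward, with a median near 0, and *Lyve1* moved most (-0.52, adjusted p = 0.314). The stellate sum was carried mostly by *Dcn* (-0.11, adjusted p = 0.599), and 4 of the 5 stellate markers had lower means in KO, with a median change of -0.45 over the list. None of them was called, at -0.95 for *Col1a1* (adjusted p = 0.416), -0.57 for *Col3a1* (adjusted p = 0.522) and -0.45 for *Pdgfrb* (adjusted p = 0.311, groups not overlapping), while *Lrat* gave 0.50 (adjusted p = 0.272). The part of other cell types in the *Smpd3* values was not tested.

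**Figure D3:**
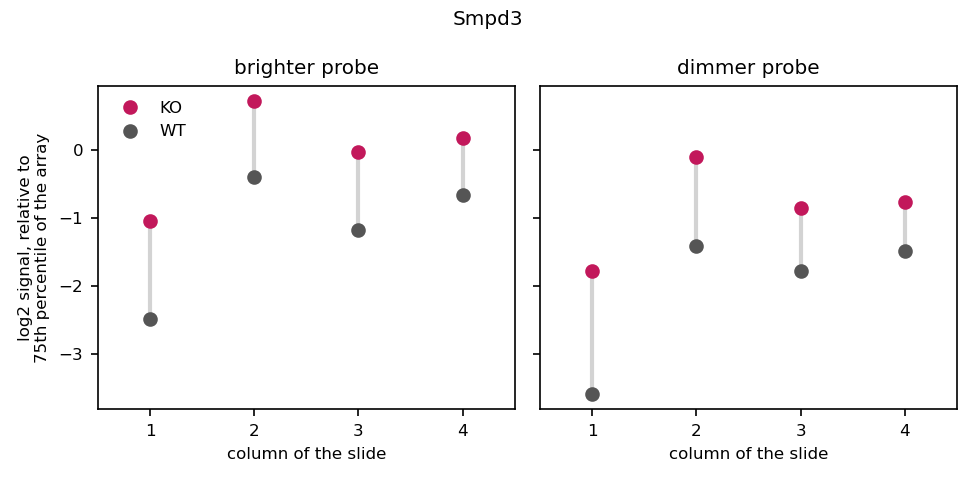
Log2 signal of *Smpd3*, with the 75th percentile of the array at 0 (vertical axis), by column of the slide (horizontal axis), for each of its 2 probes, with WT in grey, KO in magenta and the 2 arrays of a column joined by a line. KO lies above WT in each of the 4 columns, by 0.83 to 1.44 at the brighter probe, while the level of both moves from column to column.

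The surrounding steps of sphingolipid metabolism were read from 5 lists of 55 further genes, of which 54 were on the array and 44 could be tested. None was called by limma (background 1.76%), with 3 genes higher and 2 lower at an unadjusted p under 0.05 (background 14.0%), and the median change was -0.02, next to -0.03 over all tested genes. The 95% interval lay inside 1.5-fold for 34 of the 44 (background 76.2%), and 2 genes had groups that did not overlap (background 9.72%). These counts were close to or below what the background shares give.

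Of 6 tested genes that act beside the first steps, 0 were called. The smallest p values were those of *Degs2*, a desaturase that also hydroxylates (-0.35, adjusted p = 0.382), *Ormdl3*, an inhibitor of serine palmitoyltransferase (0.14, adjusted p = 0.484), and *Sptlc3*, an alternative catalytic subunit (0.11, adjusted p = 0.530). The *Degs2* probe was dim, at a mean of -3.13 in WT, and its other probe was too dim to be tested. With normexp, an alternative background correction, *Degs2* gave -0.08 (adjusted p = 0.688). A dimmer probe of *Ormdl3* gave 0.18 (adjusted p = 0.359), and there the groups did not overlap. *Sptssb*, *Cers1* and *Cers3* were not tested. Among 11 tested genes of head groups and ceramide transport, 0 were called and the median change was -0.03. The smallest p values belonged to *Plekha8*, which carries glucosylceramide (0.20, adjusted p = 0.406), *Cptp*, which carries ceramide phosphate (-0.13, adjusted p = 0.678), and *B4galt5*, a lactosylceramide synthase (-0.14, adjusted p = 0.709).

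Among 9 tested genes of breakdown and salvage, 0 were called. *Asah2*, the neutral ceramidase, read -1.39, -1.12, -1.20 and -1.10 in WT and -0.83, -0.83, -0.87 and -0.86 in KO. At this probe all KO values lay above all WT values, and the adjusted p of 0.116 was under the threshold. The change of 0.35 (95% interval 0.17 to 0.53), or 1.28-fold, was below the 1.5-fold minimum. The other tested probe of *Asah2*, a dimmer one, gave 0.10 (95% interval -0.17 to 0.38, adjusted p = 0.772), and there the groups overlapped. With the mean of the tested probes, *Asah2* was at 0.23 with an adjusted p of 0.257, over the threshold. The alkaline ceramidase *Acer3* gave 0.25 (adjusted p = 0.420). *Smpd2*, another neutral sphingomyelinase, gave -0.12 (standard error 0.07, adjusted p = 0.492), with a sign opposite to that of *Smpd3* and an interval inside 1.5-fold.

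Among 12 tested genes of sphingosine 1-phosphate, a signaling lipid made from the sphingosine that ceramidases release, 0 were called. *Aldh3a2*, which oxidizes the fatty aldehyde left by sphingosine 1-phosphate cleavage, read 4.57, 4.55, 4.64 and 4.59 in WT and 4.76, 4.75, 4.88 and 4.85 in KO. These groups did not overlap either, with a change of 0.22 (95% interval 0.07 to 0.36, adjusted p = 0.198) that was 1.16-fold and so below the minimum. Its adjusted p ran from 0.104 to 0.482 over the settings, and from 0.231 to 0.362 with an array left out. Dimmer probes of *Aldh3a2* gave 0.19 (adjusted p = 0.409) and 0.24 (adjusted p = 0.266), also without overlap. The receptor gene *S1pr5* gave -0.52 (adjusted p = 0.274), and the kinase gene *Sphk2* -0.25 (adjusted p = 0.396).

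The last list held 6 tested genes that supply serine or saturated and very long acyl chains, and it had the widest intervals, with 2 of 6 inside 1.5-fold. *Elovl6*, which elongates palmitoyl-CoA, read 4.05, 3.54, 4.38 and 3.19 in WT and 4.70, 4.84, 4.93 and 4.15 in KO. Only KO replicate 4 lay within the WT range, and the change was 0.86 (95% interval 0.24 to 1.49, adjusted p = 0.237). *Elovl3*, an elongase of very long saturated chains, read 6.24, 6.14, 5.60 and 6.00 in WT and 5.70, 5.005, 3.96 and 5.41 in KO. Its change was -0.98 (95% interval -1.78 to -0.18, adjusted p = 0.280), and KO replicate 1 overlapped WT. With the column as a block, both passed the thresholds, at adjusted p values of 0.113 for *Elovl6* and 0.153 for *Elovl3*. *Psph*, the last enzyme of serine synthesis, gave 0.28 (adjusted p = 0.391).

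**Figure D4:**
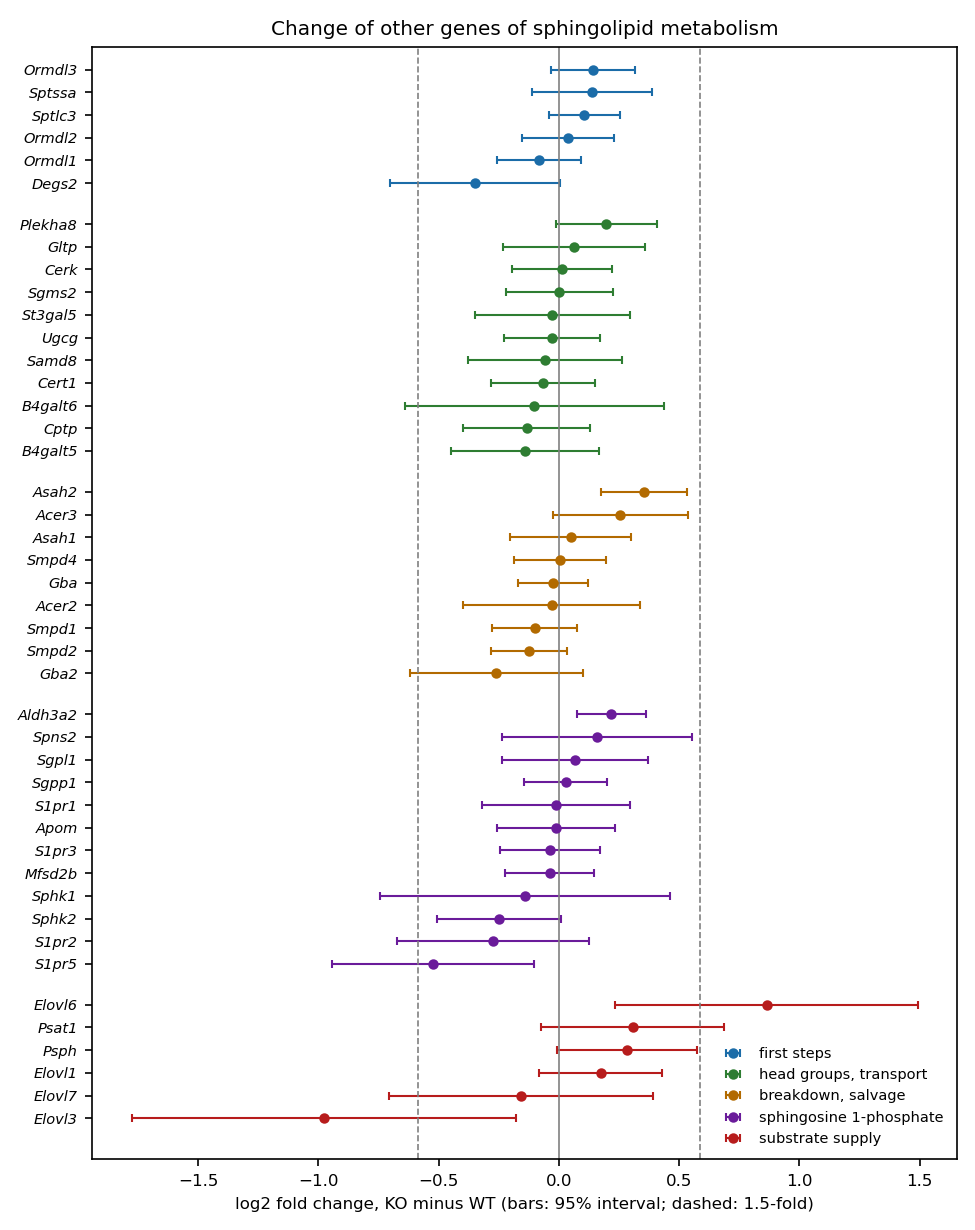
Log2 fold change, KO minus WT (horizontal axis), of the 44 other tested genes of sphingolipid metabolism at their brightest probe, with 95% intervals from limma, colored by list. Dashed lines mark 1.5-fold. Points cluster around 0, and the widest departures are *Elovl6* at 0.86 and *Elovl3* at -0.98.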

How the data were processed

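Liver RNA of 8 mice was measured on one-color arrays, 1 per mouse. The authors deposited the intensity of each spot from Feature Extraction 10.7.1.1 (background-corrected, linear scale) and a table of log2 values. For at least 99.977% of probes on each array, the deposited log2 values lay within 0.01 of the log2 intensity minus the 75th percentile of the array. The authors' microarray methods are not given in the sources used here beyond the thresholds.

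Genotypes were taken from the labels. Control and outlier spots were left out, log2 intensities were set relative to the 75th percentile (261 to 309 intensity units; background 27 to 32), and repeated spots were averaged. A probe was tested if it exceeded background clearly (scanner call) on every array of WT, of KO or of both, using limma 3.58.1 in R 4.3.3 (two-sided). The test was tried on simulated data. Exact permutation tests used all 70 assignments of mice. The number of arrays limits the precision. Each p value sets the difference between genotypes, which is also that between slide rows, against the spread of mice within a genotype. Symbols came from transcript accessions in RefSeq (GRCm38.p6), which named 32994 of 56605 probes. The headers name mm9, so no probe coordinates are given. Cross-hybridization between related genes was not tested.

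The genes and lists were chosen with earlier results of these data known, and the lists were written from general knowledge. The text names all 10 genes, the 3 genes with the smallest p in each other list and *Agpat3*, and markers only where they move with a gene or check the tissue. The alternatives were quantile and median normalization, normexp with an offset of 50, the deposited log2 values, 2 other filters, outlier spots kept, eBayes with trend and robust options, a replicate block, each array left out, 2 other thresholds and probe means per gene. Figures were drawn with matplotlib 3.10.9.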

Additional observations from a re-analysis of the deposited data

Results flagged for a closer look

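In 6 of the 58 groups of 4 arrays examined, 1 liver stood far from the other 3 of its genotype, and chance gives such a gap in about 1 of 20 groups. They were *Sptlc1* in KO replicate 1 (log2 signal 1.15, the highest), *Kdsr* in WT replicate 2 (1.23, the lowest), *Sgms1* in KO replicate 3 (-0.22, the highest), the dimmer probe of *Smpd3* in WT replicate 1 (-3.60, the lowest), *Sptlc3* in WT replicate 4 (3.18, the highest) and *B4galt5* in KO replicate 3 (3.34, the highest). No array stood out in all of these genes.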

How the results depend on the processing

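Over the settings, 146 recomputed changes of the 9 tested genes kept their direction and side of the threshold, and 15 turned in sign at changes near 0. *Smpd3* passed with the replicate block, which called 1 of the 9 genes and 592 probes in all, next to 29069 probes tested in the main fit. The unadjusted p also called 1 of the 9, again *Smpd3*, and 985 of the 29069 probes. Deviations of same-numbered arrays from their genotype means correlated at r of 0.331, -0.109, 0.104 and 0.319 for numbers 1 to 4. For 3 of 4 WT arrays, the KO array of the same number correlated best. These values do not settle whether the numbers are pairs. The labels give no reason to pair the mice, and the main fit did not use pairs. Of the other genes, 44 of them tested in the main fit, 2 were called with the block (*Elovl6* and *Elovl3*) and 2 with unadjusted p. With normexp 1 was called (*Elovl6*), and with an array left out 0 to 1 (*S1pr5* without KO replicate 3, -0.66, adjusted p = 0.179). The 484 called probes became 245 with normexp, 253 with no filter, 985 with unadjusted p, 134 at an adjusted p under 0.05 with no minimum fold, and 257 to 645 with an array left out (257 without WT replicate 3, 291 without KO replicate 2, 306 without WT replicate 2). The share of calls that were higher in KO, 56.4%, was 73.5% with normexp, 67.2% at an adjusted p under 0.05, 48.6% with median scaling and 48.2% with no filter. Under median scaling, *Sptlc1* was -0.0215, *Sptlc2* -0.0053 and *Sgms1* -0.016, the mean of probes gave *Sptlc1* -0.012, and normexp gave *Cers4* 0.027; the cause was not tested. With an array left out, *Sptlc1* lay between -0.022 and 0.050, *Sptlc2* between -0.019 and 0.10, *Kdsr* between -0.096 and 0.038, *Cers4* between -0.048 and 0.033, *Sgms1* between -0.10 and 0.11 and *Smpd3* between 0.70 and 1.47 (adjusted p 0.302 to 0.613). *Cers2* lay between 0.13 and 0.22 over all settings (adjusted p 0.17 to 0.592, never past 1.5-fold). The signal of *Cers6* over background limits that gene; with no filter its adjusted p was 0.839.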
